A study of Mus musculus with 12 samples.

Results

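The S100 calcium-binding protein genes were examined in the brains of mice that had undergone experimental stroke after a competitive bone marrow (BM) transplant. The 10 genes were *S100a8*, *S100a9*, *S100a4*, *S100a6*, *S100a10*, *S100a11*, *S100a1*, *S100a13*, *S100a16* and *S100b*, taken by symbol from the 49315 genes of the count table. All 10 had enough reads to enter the test across 20290 genes. Whole-transcriptome RNA sequencing had been performed on 12 brains, 6 from mice given WT marrow and 6 from mice given *Tet2*-KO marrow.

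Both groups were CD45.1 Pep Boy recipients, irradiated at 8 to 12 weeks of age with the head shielded, and every recipient received 90% CD45.1 *Tet2*+/+ marrow. The remaining 10% came from CD45.2 donors aged 8 to 14 weeks that were *Tet2*+/+ in the WT group and *Tet2*-/- in the *Tet2*-KO group. Stroke was produced 8 to 10 weeks later by 30 min of middle cerebral artery occlusion in every mouse, and the brains were taken 14 d after stroke. The mutant cells were therefore a minority of the transplanted marrow, and the brain itself kept *Tet2* in both groups. The treatment entry of the sample labels names control hematopoietic stem cells for all 12 mice, whereas the title and the genotype entry of the *Tet2*-KO samples name the knockout, and the grouping followed the latter. *Tet2* read 132 ± 7.60 CPM (counts scaled to library size, SD, n = 6) in WT and 131 ± 7.79 CPM (n = 6) in *Tet2*-KO brains, a level that cannot check the labels in this design. Library totals were 12000261 to 15340787 counts in WT and 12625047 to 21049763 in *Tet2*-KO brains. Sham-operated brains were not analysed here.

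S100 proteins are small EF-hand proteins found in vertebrates. Most work as dimers that bind calcium and then expose a surface for partner proteins such as annexins, cytoskeletal proteins and kinases. The calgranulins S100A8 and S100A9 pair to form calprotectin, an abundant cytosolic protein of neutrophils and monocytes that acts as an alarm signal through Toll-like receptor 4 and RAGE once it is released. In the healthy brain the best known member is S100B, made mainly by astrocytes and by some oligodendrocyte lineage cells, and widely measured in blood as a marker of brain injury. The genes were described in 3 groups, the calgranulins, those known from macrophages, fibroblasts and reactive glia (*S100a4*, *S100a6*, *S100a10*, *S100a11*), and those known from resting glia and neurons (*S100a1*, *S100a13*, *S100a16*, *S100b*).

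On the mm10 build 9 of the 10 genes lie on chromosome 3, and *S100b* lies apart at chr10:76253853-76261159 on the plus strand. *S100a8* occupies chr3:90668978-90670035 on the plus strand and *S100a9* chr3:90692632-90695721 on the minus strand. Going from *S100a1* (chr3:90511034-90514392, minus strand) to *S100a9*, 7 members sit in 185 kb, whereas *S100a11* (chr3:93520488-93526287) and *S100a10* (chr3:93555080-93564643), both on the plus strand, lie beyond a gap of 2825 kb. *S100a1* and *S100a13* (chr3:90514435-90524581, plus strand) are arranged head to head with 43 bases between their annotated starts. *S100a4* (chr3:90603771-90606045, plus strand) shares 51.7% of its exon bases with the same-strand gene *Gm42674*. Depending on the counting, reads there may have gone to either of the 2 genes or have been left uncounted, so *S100a4* may be undercounted. *Gm42674* held at most 5 counts in any WT brain and at most 1 in any *Tet2*-KO brain.

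The promoter windows of the 3 members with the largest fitted differences are printed because each holds the sequence TATAAA on the gene strand, marked in capitals. RefSeq windows (GRCm38.p6) of 300 bases, 250 before and 50 after the start, were available for 9 of the 10 members, and *S100a10* was not matched. The windows are chr3:90668821-90669120 for *S100a8* (plus strand), chr3:90695672-90695971 for *S100a9* (minus strand) and chr3:90603520-90603819 for *S100a4* (plus strand), each read from 5′ to 3′ on the strand of the gene.
*S100a8*: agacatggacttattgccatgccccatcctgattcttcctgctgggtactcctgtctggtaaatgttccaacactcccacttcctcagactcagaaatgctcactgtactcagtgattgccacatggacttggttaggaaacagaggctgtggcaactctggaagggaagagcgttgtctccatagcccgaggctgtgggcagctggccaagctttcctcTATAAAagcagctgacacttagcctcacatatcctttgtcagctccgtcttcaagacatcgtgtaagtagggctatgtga
*S100a9*: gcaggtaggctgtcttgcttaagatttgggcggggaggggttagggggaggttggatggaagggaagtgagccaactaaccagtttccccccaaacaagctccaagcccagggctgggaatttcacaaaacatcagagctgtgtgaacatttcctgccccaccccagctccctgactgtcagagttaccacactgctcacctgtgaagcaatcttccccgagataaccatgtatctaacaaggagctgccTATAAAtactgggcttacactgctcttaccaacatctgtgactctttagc
*S100a4*: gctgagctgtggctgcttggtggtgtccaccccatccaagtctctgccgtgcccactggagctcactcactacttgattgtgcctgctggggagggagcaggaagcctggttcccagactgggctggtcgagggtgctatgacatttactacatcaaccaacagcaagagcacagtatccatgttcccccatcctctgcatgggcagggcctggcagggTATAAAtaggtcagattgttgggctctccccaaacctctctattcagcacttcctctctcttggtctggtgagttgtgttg
The TATAAA sequence began 30 bases before the annotated start of *S100a8* and 31 bases before that of *S100a4*. In *S100a9* it began at the annotated start itself. It was not in the windows of the other 6 matched members, and 8.32% of 32851 windows of all genes held it. A C/EBP-type sequence, searched as TTNNGNAA or TTNCNNAA and so on both strands, occurred 1 time in the *S100a8* window, 2 times in that of *S100a9* and in no other member's window, against 40.7% of all windows with at least 1 match. The AP-1-type sequence TGANTCA, its own reverse complement, was present 2 times in the *S100a11* window and 1 time in the second of the windows of *S100a16*, with 7.81% of all windows holding it. GAGGAA or TTCCTC, a PU.1-type core on both strands, was found in the windows of *S100a8*, *S100a4*, *S100a11* and *S100a16* and in 28.3% of all windows. The CG dinucleotide occurred 4 times in the *S100a8* window and 2 times each in those of *S100a9* and *S100a4*, with a median of 7 over all windows. It occurred 3 times in the *S100b* window, 6 times in that of *S100a6* and 2 and 4 times in those of *S100a16*. In the windows of *S100a11*, *S100a13* and *S100a1* it occurred 15, 14 and 11 times. These matches describe the letters of the windows, and binding was not measured.

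Both calgranulins were lower in *Tet2*-KO than in WT recipients, by 4.46-fold for *S100a8* and 7.16-fold for *S100a9* in the edgeR fit. *S100a8* ranged from 2.22 to 7.82 CPM in WT brains (median 4.08) and from 0.385 to 1.41 CPM in *Tet2*-KO brains (median 1.10). The 2 groups did not overlap, and the 6 *Tet2*-KO mice all lay below the lowest WT mouse. The means were 4.52 ± 1.91 CPM (SD, n = 6) and 1.01 ± 0.389 CPM (n = 6). The fitted log2 fold change was -2.16, with a standard error (SE) of 0.31 (edgeR quasi-likelihood test, Benjamini-Hochberg adjusted p = 0.0364). In raw reads this was 28 to 109 counts per WT brain and 5 to 26 counts per *Tet2*-KO brain.

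*S100a9* ranged from 1.07 to 3.73 CPM in WT brains (median 2.20) and from 0.0769 to 0.628 CPM in *Tet2*-KO brains (median 0.256), again without overlap. The means were 2.18 ± 0.962 CPM (SD, n = 6) and 0.305 ± 0.225 CPM (n = 6), resting on 13 to 52 and on 1 to 10 counts per brain. The filter on low counts asked for about 0.727 CPM in 6 libraries, which *S100a9* reached in 6 WT and 0 *Tet2*-KO libraries, *S100a8* in 6 and 4 and *S100a4* in 6 and 3, so these 3 genes entered the test through the group where they were high. Without that filter both calgranulins were also past the adjusted threshold in edgeR. Its log2 fold change was -2.84 (SE 0.41, edgeR, Benjamini-Hochberg adjusted p = 0.0364). For each calgranulin an exact two-sided permutation test of log2(CPM + 0.1) gave p = 0.00216, the smallest value that 924 assignments of 12 mice allow. In bulk tissue, fewer calgranulin-expressing cells and less calgranulin RNA per cell cannot be told apart.

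Past the adjusted threshold of 0.05, 2 of 10 members fell and none rose. Over all genes tested, 0.0246% (5 genes) fell past that threshold and 0 rose, and *S100a9* and *S100a8* ranked 2 and 3 of 20290 by p. Complete separation with every *Tet2*-KO mouse below every WT mouse, seen in the same 2 members, occurred in 0.641% of genes tested, and the opposite separation in 0.453%. Since both members entered the test through the WT group, where they were high, these counts and ranks are a description. Both calls were sensitive to single mice even though the sizes were not. Leaving out 1 mouse at a time, the *S100a8* log2 fold change stayed between -2.29 and -1.93 while its adjusted p (edgeR, Benjamini-Hochberg) ranged from 0.00434 to 0.191. It remained past the threshold without WT replicate 2, WT replicate 6 or *Tet2*-KO replicate 5, and not without any one of the other 9 mice. For *S100a9* the corresponding ranges were -3.11 to -2.61 and 0.0029 to 0.189, and the call was kept in 4 of 12 cases, these 3 and WT replicate 5. The number of all genes past the threshold moved as well. It was 4, 2 and 13 without WT replicate 2, 5 or 6 and 2257 without *Tet2*-KO replicate 5. Without any one of the remaining mice 0 genes passed.

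**Figure D1:**
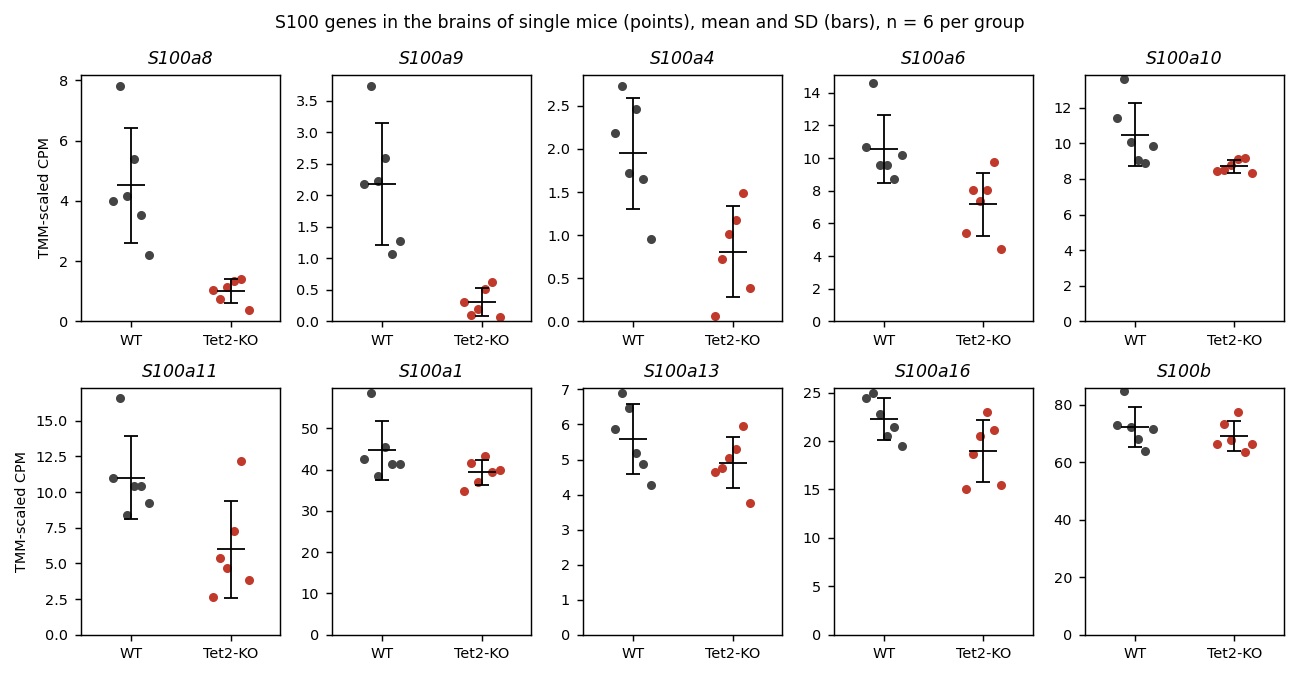
TMM-scaled CPM (vertical axes starting at 0, one scale per gene) of the 10 S100 genes in single brains (points), with the mean and SD of each group of 6 mice (bars). In *S100a8* the *Tet2*-KO mice sit between 0.385 and 1.41 CPM, all below the lowest WT mouse at 2.22, whereas in *S100b* the groups overlap at 63.7 to 77.4 and 64.0 to 84.8 CPM.

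*S100a8* had more reads than *S100a9* in every brain, with totals of 374 to 181 in WT (ratio 2.07, 1.75 to 3.31 per mouse) and 98 to 29 in *Tet2*-KO (ratio 3.38, 2.25 to 7.5 per mouse). The per-mouse ratios overlapped, and those of the *Tet2*-KO mice rested on few *S100a9* reads. Within groups the 2 genes varied together over the 12 mice, with Pearson r = 0.87 for log2 CPM after the group means were removed, a description over mice that share library preparation and scaling. Such values were not particular to this pair or to members of the same gene group. *S100a13* had r = 0.85 with *S100a8* and 0.81 with *S100a9*, and *S100a16* had 0.85 with *S100a4*. Over all pairs of members r lay between 0.26 (*S100a11* and *S100b*) and 0.87. The genes most like *S100a9* by this measure were *Tnfrsf11b* (r = 0.974), which encodes osteoprotegerin, *Draxin* (r = 0.939), an axon guidance protein, and *Fam114a2* (r = 0.92).

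The gene group known from macrophages, fibroblasts and reactive glia had fitted differences of -0.27 to -1.28 on the log2 scale, with a median of -0.72. By edgeR with Benjamini-Hochberg adjustment 0 of these 4 passed the threshold, all 4 had an unadjusted p under 0.05, and 3 (*S100a4*, *S100a6*, *S100a11*) passed by DESeq2. In all, DESeq2 called 5 members, where 3.38% of all genes tested were lower and 0.944% higher, and limma-voom called 4 (the calgranulins, *S100a6* and *S100a11*), where 6.38% were lower and 2.8% higher. With *S100a8*, *S100a9* and *S100a16*, 7 of the 10 members had an unadjusted p under 0.05 and a lower fitted level, against 12.2% of all genes tested, and none had one with a higher level, against 10.8%. Since 3 of the 7 entered the test through the WT group, this count is a description. It was 6 with upper quartile scaling, which left *S100a16* out, and 5 without WT replicate 2. Of all genes, 4678 of 20290 had an unadjusted p under 0.05 in either direction in the main fit. That number was 5138 of 20290 with upper quartile scaling and 3130 of 20475 without WT replicate 2. In the exact permutation test *S100a16* had p = 0.0649.

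*S100a4*, a gene of motile cells whose protein binds non-muscle myosin IIA, ranged from 0.952 to 2.73 CPM in WT (median 1.95) and from 0.062 to 1.49 CPM in *Tet2*-KO brains (median 0.869). The groups overlapped, and 3 of the 6 *Tet2*-KO values lay below the lowest WT value. Its log2 fold change was -1.28 (SE 0.39, edgeR, Benjamini-Hochberg adjusted p = 0.124), with p = 0.013 in the exact permutation test. It was counted from 12 to 38 reads per WT brain and 1 to 23 reads per *Tet2*-KO brain.

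*S100a6*, calcyclin, a protein of proliferating cells and fibroblasts that also binds annexins, ranged from 8.74 to 14.6 CPM in WT (median 9.87) and from 4.46 to 9.73 CPM in *Tet2*-KO brains (median 7.71). Only *Tet2*-KO replicate 5, at 9.73 CPM, reached into the WT range. The log2 fold change was -0.55 (SE 0.17, edgeR, Benjamini-Hochberg adjusted p = 0.123; exact permutation p = 0.00866).

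*S100a11*, calgizzarin, a partner of annexin A1, ranged from 8.40 to 16.6 CPM in WT (median 10.4) and from 2.66 to 12.2 CPM in *Tet2*-KO brains (median 5.03). Here too *Tet2*-KO replicate 5 was the single mouse inside the WT range, and the other 5 lay at 7.25 CPM or lower. The log2 fold change was -0.89 (SE 0.31, edgeR, Benjamini-Hochberg adjusted p = 0.146; exact permutation p = 0.0195).

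*S100a10*, or p11, an S100 protein that has lost calcium binding and joins annexin A2 in a complex that gathers plasminogen at the cell surface, ranged from 8.90 to 13.6 CPM in WT (median 9.95) and from 8.31 to 9.18 CPM in *Tet2*-KO brains (median 8.66). Its values were narrowly spread in *Tet2*-KO brains (SD 0.365 CPM against 1.78 CPM in WT). The log2 fold change was -0.27 (SE 0.10, edgeR, Benjamini-Hochberg adjusted p = 0.153; exact permutation p = 0.0152).

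In *S100a6* and *S100a11* the overlap thus came from *Tet2*-KO replicate 5. With that mouse left out, the adjusted p from edgeR (Benjamini-Hochberg) was 0.0330 for *S100a4* (log2 fold change -1.49), 0.0266 for *S100a6* (-0.65) and 0.0141 for *S100a11* (-1.19), so that 5 of 10 members passed. In that setting 7.3% of all genes tested fell and 3.7% rose past the threshold, so the larger number of members went with a larger number of genes throughout. The genes whose pattern over mice was most like that of *S100a6* were *Ccnd3* (r = 0.985), encoding cyclin D3, *Gnpda1* (r = 0.969), an enzyme of glucosamine metabolism, and *Egflam* (r = 0.965), a matrix protein.

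**Figure D2:**
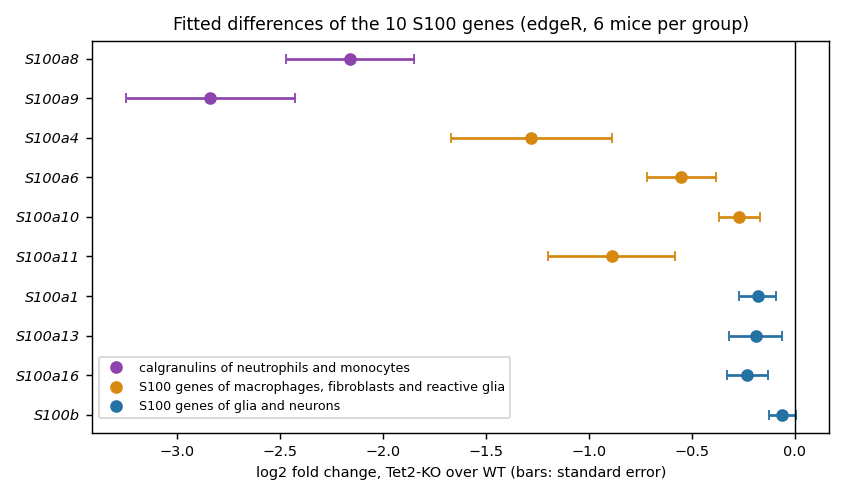
Fitted log2 fold change, *Tet2*-KO over WT, of each S100 gene (points) with its standard error (bars), coloured by the 3 gene groups. The calgranulins stand at -2.16 and -2.84, the second group between -1.28 and -0.27, and the glial and neuronal group between -0.23 and -0.06.

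Among the members known from resting glia and neurons the fitted differences were small, with a median of -0.18. 0 of these 4 passed the adjusted threshold in edgeR, DESeq2 or limma-voom, and 1 of 4 (*S100a16*) had an unadjusted p under 0.05 in edgeR. *S100b* ranged from 64.0 to 84.8 CPM in WT (median 72.0) and from 63.7 to 77.4 CPM in *Tet2*-KO brains (median 67.0). The groups overlapped nearly completely, the means were 72.3 ± 6.98 (SD, n = 6) and 69.1 ± 5.15 CPM (n = 6), and the log2 fold change was -0.06 (SE 0.066, edgeR, Benjamini-Hochberg adjusted p = 0.596; exact permutation p = 0.387). With WT replicate 2 and *Tet2*-KO replicate 5 both left out, an alternative chosen after seeing the data, it was 0.01.

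*S100a1*, whose protein regulates ryanodine receptor calcium release and is best known from heart muscle, ranged from 38.4 to 58.6 CPM in WT (median 42.0) and from 34.9 to 43.2 CPM in *Tet2*-KO brains (median 39.7). The highest value belonged to WT replicate 2, and the other 5 WT mice lay at 45.4 CPM or lower. Its log2 fold change was -0.18 (SE 0.09, edgeR, Benjamini-Hochberg adjusted p = 0.238; exact permutation p = 0.0931). *S100a13*, which takes part in the unconventional release of FGF1, ranged from 4.28 to 6.89 CPM (median 5.53) and from 3.77 to 5.96 CPM (median 4.90), with a log2 fold change of -0.19 (SE 0.13, edgeR, Benjamini-Hochberg adjusted p = 0.418; exact permutation p = 0.223). Without WT replicate 2 the values of *S100a1* and *S100a13* were -0.09 and -0.12. *S100a16*, a broadly expressed member, ranged from 19.5 to 25.0 CPM (median 22.2) and from 15.1 to 23.0 CPM (median 19.6), with a log2 fold change of -0.23 (SE 0.10, edgeR, Benjamini-Hochberg adjusted p = 0.201). Over mice, the genes most like *S100b* were *Hsd17b4* (r = 0.943), a peroxisomal enzyme, *Myrf* (r = 0.94), a transcription factor of myelinating oligodendrocytes, and *Clu* (r = 0.933), encoding clusterin, which astrocytes secrete.

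All 10 fitted differences were below 0, against 47.7% of genes tested. Their median was -0.41 and that of all genes tested was 0.01. All 10 were also below 0 with DESeq2 size factors and with upper quartile scaling in place of TMM. The exception was *S100b*, above 0 in the alternative given above. As *S100a8*, *S100a9* and *S100a4* entered the test through the WT group, the count of differences below 0 is a description.

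Per kb of exon, the scale on which levels of different genes can be compared, the order of mean levels in WT brains was *S100a1* (64.3 CPM per kb), *S100b* (48.7), *S100a11* (21.5), *S100a16* (13.8), *S100a10* (8.65), *S100a13* (7.82), *S100a6* (7.71), *S100a8* (6.51), *S100a9* (4.17) and *S100a4* (3.34). Neighbours in this order overlapped in their ranges over WT mice, except that *S100b* lay above *S100a11*, *S100a11* above *S100a16* and *S100a16* above *S100a10* in every comparison of 2 mice. The order in *Tet2*-KO brains placed *S100a8* (1.46 CPM per kb), *S100a4* (1.39) and *S100a9* (0.584) last. The place of *S100a4* would be too low if reads on the bases shared with *Gm42674* went uncounted. *S100a11* and *S100a16* stood at 11.7 CPM per kb each. As a share of the summed per-length level of the 10 genes, the calgranulins made up 5.57% ± 1.58 (SD, n = 6; 3.38 to 7.54%) in WT and 1.34% ± 0.563 (n = 6; 0.516 to 1.96%) in *Tet2*-KO brains, without overlap. The second group made up 21.9% (20.1 to 24.2%) and 16.8% (12.6 to 24.8%), and the glial and neuronal group 72.5% (68.3 to 75.5%) and 81.9% (73.2 to 86.0%), both with overlap.

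**Figure D3:**
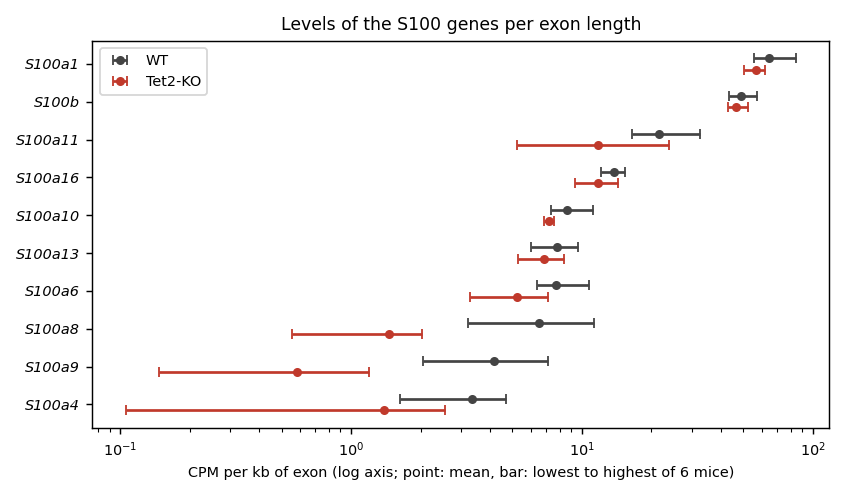
Mean level per exon length (CPM per kb, log axis) of each S100 gene in WT and *Tet2*-KO brains (points), with the lowest and highest of 6 mice (bars), ordered by the WT mean. *S100a1* and *S100b* lead in both groups, and the calgranulin bars of the 2 groups are apart, with *S100a8* at 6.51 in WT and 1.46 in *Tet2*-KO.

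WT replicate 2 was the highest mouse of its group in all 10 members, and *Tet2*-KO replicate 5 was the highest of its group in 7, with *Tet2*-KO replicate 4 the highest in *S100a1*, *S100a16* and *S100b*. The summed level of the 10 genes was 234 CPM in WT replicate 2, 166 to 187 CPM in the other 5 WT mice and 139 to 176 CPM in *Tet2*-KO mice. *Tet2*-KO replicate 6 was the lowest of its group in 5 members and *Tet2*-KO replicate 1 in 4.

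Markers of the cells that could carry these transcripts were lower in summed level as well, with overlap between the groups in each list. The counts below stand beside 12.2% of all genes tested that were lower at an unadjusted p under 0.05 in edgeR. Of 14 neutrophil markers 5 were tested, and all 5 had an unadjusted p under 0.05 with a lower level, with the smallest p in *Cxcr2* (log2 fold change -2.56), *Il1r2* (-0.83) and *Hdc* (-0.85). The summed level of the list was 75.1 to 160 CPM in WT and 26.8 to 85.3 CPM in *Tet2*-KO brains, most of it from *Csf3r* (mean 83.1 and 45.7 CPM). The granule gene *Mmp8* averaged 1.40 and 0.529 CPM (-1.50). The 9 markers with too few reads for the test are given as total counts of the 6 WT and the 6 *Tet2*-KO brains. *Cd177* had 28 and 8, *Padi4* 40 and 16, and *Ltf* 33 and 18. *Ngp* had 61 and 58, *Retnlg* 46 and 47, *Mpo* 25 and 29, and *Camp* 17 and 15. These totals are not scaled, and the *Tet2*-KO libraries were deeper (median 15894080 against 13490632 counts). As mean CPM, *Ngp* stood at 0.741 and 0.579, *Retnlg* at 0.576 and 0.509, *Mpo* at 0.302 and 0.304, and *Camp* at 0.208 and 0.158. *Ly6g* (2 and 0) and *Elane* (2 and 2) were near 0 in both groups. No neutrophil marker was at 0 in every library. Of 8 monocyte markers tested all 8 were lower at an unadjusted p under 0.05 (median -1.77), among them *F13a1* (-1.0) and *Plac8* (-1.91). The monocyte sums, mostly from *Fn1* (mean 474 and 221 CPM), were 384 to 823 CPM against 121 to 483 CPM. For phagocytes of the lesion 8 of 9 were lower at an unadjusted p under 0.05 (median -1.62, sums 1150 to 2951 against 93.3 to 1659 CPM). The smallest p there was in *Fabp5* (-0.93), *Lgals3* (-1.95) and *Ms4a7* (-1.62). Fibroblast markers, with the smallest p in *Dcn* (-1.30), *Pdgfrb* (-0.58) and *Col1a1* (-1.36), gave 7 of 7 (median -1.30, 577 to 1303 against 129 to 737 CPM), and reactive astrocyte markers, with the smallest p in *Timp1* (-0.96), *Steap4* (-2.09) and *Cp* (-1.05), 6 of 9 (median -0.96, 1330 to 3397 against 522 to 2260 CPM).

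None of these marker genes passed the adjusted threshold in edgeR. By DESeq2 it was passed by 3 of 5 neutrophil, 3 of 8 monocyte, 1 of 9 lesion phagocyte, 2 of 7 fibroblast and 1 of 9 reactive astrocyte markers, and by limma-voom by 4, 8, 8, 7 and 4 of them. All of these were lower, against 3.38% of all genes tested by DESeq2 and 6.38% by limma-voom. The part of these cells in the S100 values was not tested. In *Tet2*-KO replicate 5 the marker sums lay within the WT ranges, at 85.3 CPM for neutrophil, 483 CPM for monocyte, 1659 CPM for lesion phagocyte and 737 CPM for fibroblast markers. *Csf3r* alone gave 74.8 CPM of the neutrophil sum and *Fn1* 428 CPM of the monocyte sum in this mouse. Its *S100a8* (1.41 CPM) and *S100a9* (0.628 CPM) lay below every WT mouse. So did *Ngp* (0.235 CPM against a WT low of 0.43) and, by narrow margins, *Retnlg* (0.314 against 0.324) and *Hdc* (3.61 against 3.63). *Cxcr2* (1.33 CPM), *Il1r2* (1.73 CPM), *Mmp8* (1.96 CPM), *Csf3r*, *Mpo*, *Camp*, *Ltf*, *Cd177* and *Padi4* lay within the WT ranges. In this mouse *Ly6g* and *Elane* were at 0 CPM, the lowest WT value.

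**Figure D4:**
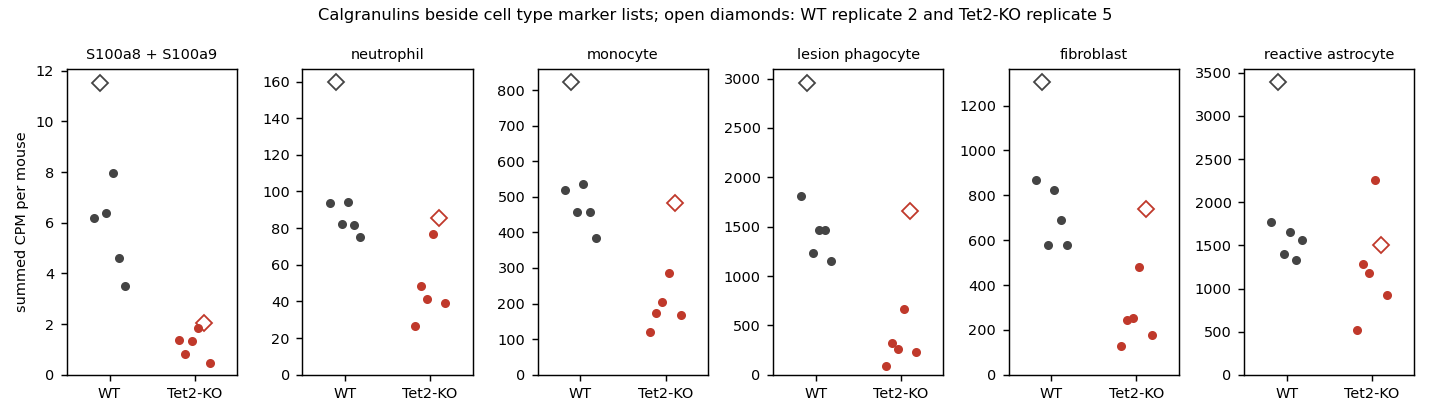
Summed CPM per mouse of *S100a8* and *S100a9* and of 5 marker lists in WT and *Tet2*-KO brains (axes from 0, one scale per panel), with WT replicate 2 and *Tet2*-KO replicate 5 as open diamonds. WT replicate 2 is the highest WT mouse in each panel, and *Tet2*-KO replicate 5 reaches the WT range for monocyte markers at 483 CPM but not for the calgranulins at 2.04 CPM. Most of the neutrophil sum is *Csf3r* and most of the monocyte sum is *Fn1*.

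Among markers of cells known to express the glial and neuronal members, those of astrocytes and oligodendrocytes differed less and those of neurons were higher. Markers of homeostatic microglia, endothelium and red blood cells are given beside them. Astrocyte markers had a median log2 fold change of -0.09, with 0 of 8 lower and 1 higher (*Slc1a2*, 0.13) at an unadjusted p under 0.05, and oligodendrocyte markers one of -0.01 with 0 of 9 in either direction. Their sums were 5505 to 5656 against 5417 to 6153 CPM and 5111 to 6736 against 4728 to 6614 CPM. Neuron markers were higher at an unadjusted p under 0.05 in 8 of 9 (median 0.24), with the smallest p in *Rbfox3* (0.31), *Stmn2* (0.24) and *Slc12a5* (0.20), with sums of 4368 to 6375 against 5781 to 8055 CPM. Homeostatic microglia markers had 1 of 8 lower (*Olfml3*, -0.65; median -0.21, 644 to 1162 against 319 to 841 CPM) and endothelial markers 3 of 7 (*Emcn*, -0.43, *Cldn5*, -0.45 and *Cdh5*, -0.37; median -0.16, 228 to 263 against 198 to 242 CPM). Red blood cell markers were higher in 3 of 5 (*Hbb-bs*, 0.54, *Hba-a2*, 0.56 and *Hbb-bt*, 0.66; median 0.54, 21.2 to 31.5 against 27.4 to 41.2 CPM). 0 of these genes passed the adjusted threshold in edgeR. By DESeq2 2 endothelial markers did, and by limma-voom 2 endothelial markers with lower levels and 3 neuron markers with higher levels. Of all genes tested, DESeq2 called 3.38% lower, and limma-voom called 6.38% lower and 2.8% higher.

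Released S100 proteins are sensed by cell surface receptors, and 14 genes of these receptors and of their signalling were tested. Of these, 13 had a fitted difference below 0 and the median was -0.30. By edgeR 0 passed the adjusted threshold, 9 were lower and 1 higher when p was left unadjusted at 0.05, while DESeq2 called 5 lower and limma-voom 8. Of all genes tested, 12.2% were lower and 10.8% higher at that unadjusted level, and DESeq2 called 3.38% lower and limma-voom 6.38%. *Cd36*, a scavenger receptor that takes part in the uptake of S100A8/S100A9 with bound arachidonic acid, ranged from 5.03 to 12.1 CPM in WT and from 1.30 to 4.86 CPM in *Tet2*-KO brains. The groups did not overlap, and the log2 fold change was -1.73 (SE 0.28, edgeR, Benjamini-Hochberg adjusted p = 0.0752). *Myd88*, the adaptor below Toll-like receptors, averaged 11.7 and 6.67 CPM (log2 fold change -0.81, edgeR, Benjamini-Hochberg adjusted p = 0.110). *Emb*, encoding embigin, a receptor for S100A9, averaged 28.1 and 23.4 CPM without overlap between groups (-0.26, adjusted p = 0.112 by edgeR with Benjamini-Hochberg adjustment).

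The Toll-like receptor 4 complex had like values in its 3 genes. *Tlr4* averaged 11.9 and 6.16 CPM (log2 fold change -0.95), its co-receptor *Ly96* 2.42 and 1.35 CPM (-0.89) and *Cd14* 14 and 7.32 CPM (-0.95), with adjusted p from edgeR (Benjamini-Hochberg) of 0.138, 0.124 and 0.182. *Ager*, which encodes RAGE, averaged 1.18 and 1.14 CPM (-0.06, edgeR, Benjamini-Hochberg adjusted p = 0.910), and *Bsg*, encoding basigin, 207 and 198 CPM (-0.06). *Nptn*, encoding neuroplastin, a relative of basigin and embigin abundant in neurons, averaged 411 and 465 CPM (0.18). *Cd36*, *Tlr4*, *Ly96*, *Cd14* and *Myd88* are also expressed by myeloid cells, whose marker sums are given above.

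Of 18 genes for intracellular partners of S100 proteins, 13 had a fitted difference below 0 and 5 above, with a median of -0.08. By edgeR 0 passed the adjusted threshold and 7 were lower and 2 higher when p was left unadjusted at 0.05, with 4 lower by DESeq2 and 4 by limma-voom. The shares of all genes tested that were lower were 12.2% at that unadjusted level, 3.38% by DESeq2 and 6.38% by limma-voom. *Anxa1*, the partner of S100A11, ranged from 9.14 to 13.4 CPM in WT and from 2.04 to 8.08 CPM in *Tet2*-KO brains without overlap (log2 fold change -1.38, SE 0.27, edgeR, Benjamini-Hochberg adjusted p = 0.110). *Anxa2*, the partner of S100A10, ranged from 31.1 to 62.3 CPM and from 12.1 to 33.4 CPM (-0.91, SE 0.28, edgeR, Benjamini-Hochberg adjusted p = 0.127). *Iqgap1*, a scaffold of the cell cortex, averaged 146 and 91.0 CPM (-0.68, edgeR, Benjamini-Hochberg adjusted p = 0.123), and *Myh9*, the myosin heavy chain bound by S100A4, 259 and 187 CPM (-0.47, adjusted p = 0.139 by edgeR with Benjamini-Hochberg adjustment).

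The 2 partners that were higher at an unadjusted p under 0.05 made up a share close to the 10.8% of all genes tested. *Syt1*, the calcium sensor of synaptic vesicles, averaged 1075 and 1306 CPM (log2 fold change 0.28, edgeR, Benjamini-Hochberg adjusted p = 0.142) and *Ryr2*, the ryanodine receptor, 412 and 483 CPM (0.23, adjusted p = 0.212 by the same test). *Cacybp*, which encodes the calcyclin-binding protein, averaged 37.4 and 37.8 CPM (0.01), and *Fgf1*, the growth factor released with S100A13, 72.7 and 70.4 CPM (-0.05). *Anxa5*, *Myh9*, *Cacybp*, *Fgf1*, *Syt1*, *Ryr2*, *Nptn*, *Ager*, *Bsg*, the Toll-like receptor 4 complex, *Fn1* and the neutrophil markers other than *Cxcr2*, *Il1r2* and *Hdc* were named after their values were seen. *Anxa5*, a phospholipid-binding annexin, averaged 67.4 and 46.3 CPM (-0.54).

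Other S100 genes had few reads in these brains. 6 of the 7 listed were matched by symbol, and only *S100a3* had enough reads for the test, at 0.740 ± 0.194 CPM (SD, n = 6) in WT and 0.869 ± 0.298 CPM (n = 6) in *Tet2*-KO brains (log2 fold change 0.21, edgeR, Benjamini-Hochberg adjusted p = 0.691). *S100a5*, *S100a7a* and *S100g* reached at most 7, 14 and 12 counts in any brain, and *S100a14* and *S100z* at most 1, and they were not tested. *S100g* had 43 counts in all WT and 27 in all *Tet2*-KO brains together, with means of 0.529 and 0.275 CPM. The region of chromosome 3 from *S100a1* to *S100a10*, 3054 kb, holds 112 other annotated genes matched to the table, of which 4 had enough reads for the test. None of these 4 had a lower fitted level. They were *Lor* (0.29), which encodes a protein of the epidermal cornified envelope, *Tchh* (0.18), encoding trichohyalin of hair follicles, *S100a3* (0.21) and the pseudogene *Gm4202* (0.12), with a median of 0.19. *Lor* had an unadjusted p of 0.0312 and an adjusted p of 0.178 (edgeR, Benjamini-Hochberg).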

How the data were processed

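The authors deposited 1 table of raw counts per gene (Ensembl IDs) for 12 brain RNA libraries, made from total RNA after rRNA depletion. The submitters' processing notes name Trimmomatic 0.36, STAR 2.5.2b, featureCounts of Subread 1.5.2 and mm10. The annotation release and strand setting of the counting are not given in the sources used here. IDs were matched to GENCODE M21 (48970 of 49315). Genes kept by filterByExpr were TMM-scaled and fitted with edgeR 4.0.16 (robust quasi-likelihood, group only, R 4.3.3), with p adjusted by Benjamini-Hochberg over all genes tested and a threshold of 0.05. The standard error is the log2 fold change over the square root of F. The study itself used DESeq2. CPM are TMM-scaled. Exact two-sided permutation tests used log2(CPM + 0.1) of single genes.

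Named were all 10 members, up to 3 genes with the smallest p of each list, up to 5 tested genes between members, and the 3 genes most correlated with *S100a9*, *S100a6* and *S100b*. One gene that this rule names is not reported here. The members and all gene lists were chosen with earlier results of these data known. Alternatives were DESeq2 1.42.0, limma-voom (limma 3.58.1), other scaling factors, other count filters, the replicate number as a block, a pseudocount of 1 CPM and each mouse left out. Scripts were tested on simulated data. No pair of libraries agreed within sampling noise (chi-square per degree of freedom 1.91 to 24.5 over 30 within-group pairs). Low counts, as in *S100a9* and *S100a4*, limit precision.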

Additional observations from a re-analysis of the deposited data

Results flagged for a closer look

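In 20 sets of 6 mice (10 genes in 2 groups) a mouse was marked where its gap to the nearest other, as a share of the range, exceeded Dixon's 95% critical value for 6 samples, which chance gives in about 1 of 20 sets. This marked 3 values, all of WT replicate 2. *S100a6* was 14.6 CPM there and 8.74 to 10.7 CPM in the other WT mice (share 0.666). *S100a11* was 16.6 CPM against 8.40 to 11 CPM (share 0.684). *S100a1* was 58.6 CPM against 38.4 to 45.4 CPM (share 0.652). Without this mouse the log2 fold changes of *S100a11* and *S100a1* were -0.73 and -0.09, and that of *S100a6* was -0.44.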

How the results depend on the processing

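The median log2 fold change of the 10 genes was -0.41 and lay between -0.46 and -0.32 under the alternatives that kept all 10. The 2 genes past the adjusted threshold became 5 with DESeq2, 4 with limma-voom and 4 without WT replicate 2 and *Tet2*-KO replicate 5 together (chosen after seeing the data), while 902, 1863 and 1554 of all genes passed. The number was 0 with at least 10 counts in every library, where 0 of all 18181 genes tested passed. That filter removes *S100a8*, *S100a9* and *S100a4*. It leaves 4 members lower at an unadjusted p under 0.05 and a median of -0.24 over 7 members. Leaving out each mouse gave 0 to 5 members, while 0 to 2257 of all genes passed. The replicate numbers did not pair the mice (correlations of same-numbered mice -0.169 to 0.229, 1 of 6 closest to its own number), and with the replicate block 0 genes passed, with adjusted p of 0.144 for *S100a8* and 0.168 for *S100a9* by edgeR. Receptors, partners and other S100 genes past the threshold went from 0 to 9 with DESeq2, 12 with limma-voom, 0 to 12 with each mouse left out and 9 without both mice. *S100b* ranged from -0.10 with single mice left out to 0.01, a change of sign, without both mice. A pseudocount of 1 CPM moved no permutation result across 0.05. The cause of these shifts was not tested. Counts of 1 to 10 per *Tet2*-KO brain limit the precision of *S100a9*.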
